A study of Homo sapiens with 8 samples.

Results

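The genes described here are 38 genes of glucose uptake, glycolysis and pyruvate fate in HuH7 cells, a human hepatocellular carcinoma line. They were taken by symbol from the table of raw counts and cover glucose and lactate carriers, the enzymes of glycolysis, pyruvate dehydrogenase and its kinases, glycogen synthesis, TXNIP and ARRDC4. All 38 were among the 15767 genes of that table, and 31 of them, like 12928 genes in all, reached 10 counts in 4 or more libraries and were tested. The other 7 members had too few counts and are described separately.

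To model hepatic ischemia and reperfusion, HuH7 cells labeled as wildtype had been kept for 6 h at 1% oxygen in glucose-free DMEM (oxygen-glucose deprivation) and then returned to normoxia for 6 h (OGD/R). During those last 6 h they were given DMSO (I/R+DMSO, n = 4 libraries) or the ginsenoside Rk2 at 20 µM (I/R+Rk2, n = 4 libraries). Both groups had thus been through the same deprivation, and cells without it were not analysed here, so every difference below is one between Rk2 and DMSO after OGD/R. The 4 totals of I/R+DMSO lay between 18428485 and 21447045 counts, and those of I/R+Rk2 between 16374082 and 30310479. HuH7 is a single tumor line, and the labels do not say whether the 4 libraries of a group came from separate cultures, so the p-values measure the spread between these libraries. The labeled cell type was checked against its markers. All 15 hepatocyte markers examined passed the count filter, led by AFP at 5669 to 6312 normalized CPM (counts scaled to a common library size) and ALB at 2211 to 2353. Of the leukocyte markers 6 of 7 were in the count table, all but PTPRC, and 3 were tested, with LYZ the most abundant at 577 to 675 CPM. Of the stromal markers 4 of 5 were in the table, all but DCN, and 3 were tested, and of the endothelial markers 2 of 5, without VWF, CDH5 and KDR, and 1 was tested.

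Glycolysis turns glucose into pyruvate, with hexokinase, phosphofructokinase and pyruvate kinase as its irreversible steps. Pyruvate is then reduced to lactate by lactate dehydrogenase and exported, or enters the mitochondria, where pyruvate dehydrogenase feeds it into the citric acid cycle unless its kinases (PDKs) switch it off. Low oxygen is known to raise many of these genes through HIF-1, which reads the letters ACGTG, and glucose itself is sensed by MondoA and ChREBP with their partner MLX, a well-known target of which is TXNIP, a brake on glucose uptake.

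Few of these genes differed between the groups. Among the 31 tested members, 1 was higher in I/R+Rk2 (PFKFB2) and 4 were lower (TXNIP, PGAM1, GAPDH and LDHB) at an adjusted p-value below 0.05 (edgeR quasi-likelihood test, Benjamini-Hochberg adjustment over all genes tested), and 26 passed in neither direction. Over all 12928 tested genes, 11.0% were higher and 7.23% lower, so the 16.1% of members called was close to the 18.2% called among all genes. The balance over all genes moved with the scaling, from 1416 higher and 935 lower to 1643 and 684 with library size only and to 1246 and 1300 with upper-quartile normalization. Under the latter SLC2A1, ENO1 and SLC16A3 were called lower too. DESeq2 called 1683 of all genes higher and 1296 lower. Among the members, DESeq2 added PDK1 to the higher ones. It added SLC2A1, PFKFB3, ENO1, PKM and SLC16A3 to the lower ones and did not call LDHB.  A fold change above 1.5 was reached by 2 of the 5 called members, PFKFB2 and TXNIP, while 3.04% of all genes had both an adjusted p-value below 0.05 and such a fold change. The 2 groups were fully separate, library by library, in 10 members (2 higher and 8 lower), or 32.3%, against 28.2% of all genes. The log2 fold change was above 0 in 11 members and below 0 in 20, with a median of -0.09 (median of all genes -0.00), and 21 members had changed by less than 0.2 in either direction. With I/R+DMSO library 1 left out, a library that lay far from the other 3 DMSO libraries in a principal component analysis, 1 member was called higher (PFKFB2) and 4 lower, with TXNIP, PGAM1 and GAPDH still among them, LDHB no longer called (adjusted p = 0.0959, edgeR) and PFKFB3 called in its place.

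**Figure D1:**
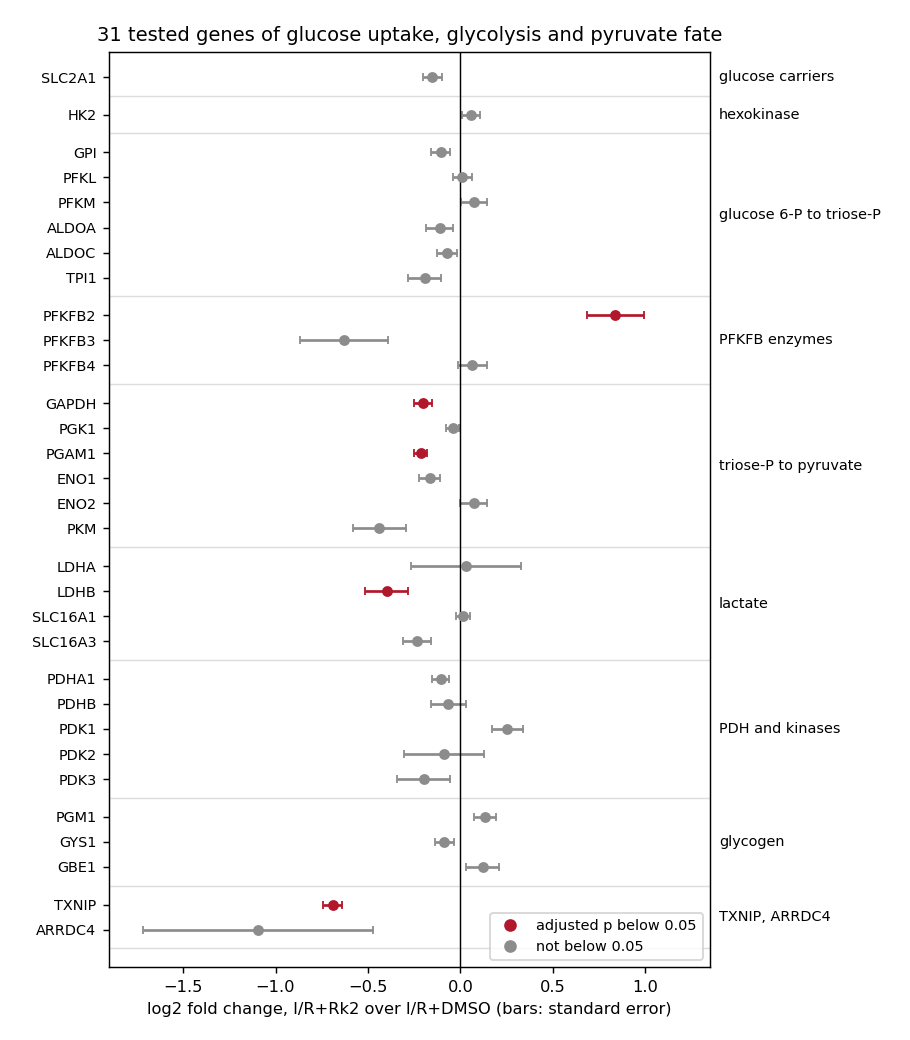
Log2 fold change of I/R+Rk2 over I/R+DMSO (horizontal axis) for the 31 tested members (rows, grouped by role), with bars for the standard error and red points for an adjusted p-value below 0.05. The 5 red points are PFKFB2 to the right of 0 and GAPDH, PGAM1, LDHB and TXNIP to the left, and ARRDC4, PFKFB3, LDHA and PDK2 carry the widest bars.

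The gene TXNIP (chr1:145992435-145996600, minus strand, positions from GENCODE v29 on GRCh38 here and below), whose product binds thioredoxin and promotes the removal of glucose carriers from the cell surface, was the member with the smallest p-value, the 37th smallest of all genes tested. Its normalized CPM was 58.5, 54.7, 58.5 and 55.2 in the 4 I/R+DMSO libraries and 34.2, 37.1, 33.9 and 35.4 in the 4 I/R+Rk2 libraries. Every Rk2 library was thus well below every DMSO library, and the spread inside each group was small. The mean fell from 56.7 ± 2.07 to 35.1 ± 1.42 (SD, n = 4 each), or -0.69 as a log2 fold change (standard error 0.0506, adjusted p = 0.000202 in edgeR). The FPKM values, which are scaled per length, ran from 16.2 to 17.0 for DMSO and from 10.3 to 11.2 for Rk2 and were separate too. In bulk RNA, a fall in every cell and a fall in a share of the cells cannot be told apart, here and for the genes below.

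ARRDC4, the arrestin-domain relative of TXNIP that is also known as a MondoA target, was near the detection limit. It had 8, 14, 11 and 11 counts in I/R+DMSO and 15, 3, 5 and 0 in I/R+Rk2, and its normalized CPM was 0.425, 0.659, 0.606 and 0.516 against 0.491, 0.159, 0.302 and 0. The Rk2 library with 15 counts lay inside the DMSO range, so the groups overlapped. The log2 fold change was -1.09 with a standard error of 0.622 (adjusted p = 0.253, edgeR), the lowest value among the members and one that did not pass the test. It was -1.87 without I/R+Rk2 library 1, -0.72 without I/R+Rk2 library 4 and -0.09 in limma on log2(FPKM + 1) without a filter, and no alternative called it. The limma value is not comparable in size, since ARRDC4 had at most 0.134 FPKM and the added 1 keeps any difference small.

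The DNA before the start sites of these genes is shown because it holds the letters that glucose-sensing and hypoxia factors are known to read. The 250 bases before a RefSeq start (GRCh38.p14, 5′ to 3′ on the gene's strand) are printed for TXNIP at chr1:145996580-145996829 (minus strand), ARRDC4 at chr15:97960453-97960702 (plus strand) and GAPDH, which is described below, at chr12:6535014-6535263 (plus strand). TXNIP has 2 starts in the RefSeq table, and the one shown is that whose window holds CACGAG. The GAPDH start is the one listed there and lies inside the GENCODE v29 gene, downstream of that gene's first base. Capitals mark CACGAG in TXNIP and CACGTG in the other 2 genes.
TXNIP: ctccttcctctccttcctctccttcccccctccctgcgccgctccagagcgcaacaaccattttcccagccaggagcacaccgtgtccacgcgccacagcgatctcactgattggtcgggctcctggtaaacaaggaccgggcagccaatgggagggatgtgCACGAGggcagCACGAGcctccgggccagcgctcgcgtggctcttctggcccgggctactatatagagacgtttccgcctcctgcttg
ARRDC4: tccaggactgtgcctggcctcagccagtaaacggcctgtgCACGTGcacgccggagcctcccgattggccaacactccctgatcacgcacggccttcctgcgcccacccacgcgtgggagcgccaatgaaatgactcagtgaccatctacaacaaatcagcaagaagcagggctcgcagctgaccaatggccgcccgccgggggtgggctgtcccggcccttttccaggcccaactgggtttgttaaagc
GAPDH: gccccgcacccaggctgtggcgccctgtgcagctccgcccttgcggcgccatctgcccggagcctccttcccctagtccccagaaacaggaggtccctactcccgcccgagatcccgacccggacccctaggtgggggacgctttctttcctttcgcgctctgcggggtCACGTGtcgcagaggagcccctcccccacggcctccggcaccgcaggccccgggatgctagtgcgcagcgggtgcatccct
In TXNIP, CACGAG begins 88 and 77 bases before this start, and 5 bases separate the pair, the layout known as a carbohydrate response element. CACGTG, the E-box, begins 210 bases before the listed start of ARRDC4 and 81 bases before that of GAPDH. Windows of 300 bases (250 before the start and 50 after) were at hand for 34 of the 38 members, all but PFKFB2, SLC2A3, SLC16A1 and GYS2, with 67 windows in all since some genes have several starts. On either strand, CACGTG was in 10 of these 67 windows (14.9%) against 7.26% of all 35116 RefSeq windows, CACGAG was in 4 (5.97%) against 6.78%, and ACGTG, which lies inside CACGTG, was in 26 (38.8%) against 21.4%. CACGTG was found for 10 members: ALDOA, ALDOC, ARRDC4, GAPDH, HK2, LDHA, PDHB, PDK2, PFKFB3 and PKLR. Of the 10, GAPDH alone passed the test between the groups and PKLR was not tested, and a match is a description of the DNA and not of a bound site.

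SLC2A1 (GLUT1) was the most abundant of the 3 glucose carriers among the members at the mRNA level. Its FPKM ranged from 14.7 to 17.9 over the 8 libraries, whereas SLC2A2 (GLUT2, the carrier of normal hepatocytes) ranged from 0 to 0.0974 and SLC2A3 (GLUT3) from 0.0246 to 0.129. Of the hexose carriers outside the members, SLC2A8 (71.7 to 77.0 FPKM) and SLC2A6 (19.4 to 23.8) were above SLC2A1. The normalized CPM of SLC2A1 was 58.8, 56.0, 58.7 and 57.7 in I/R+DMSO and 54.6, 52.7, 52.5 and 48.5 in I/R+Rk2. All 4 Rk2 libraries were the lower ones, by a small margin, and the difference of -0.15 on the log2 scale (standard error 0.0491) did not pass the test (adjusted p = 0.0669, edgeR). After a correction for gene length the value was -0.18 (adjusted p = 0.0362, edgeR), and over all alternatives the adjusted p-value ran from 0.0362 to 0.140.

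SLC2A2 was below the count filter, with 7, 8, 4 and 6 counts in I/R+DMSO and 4, 0, 3 and 0 in I/R+Rk2. Scaled by library size the groups did not overlap (0.220 to 0.376 CPM against 0 to 0.181), with p = 0.0286 in an exact two-sided permutation test, the smallest value that 4 libraries against 4 can give and 1 of 7 such tests on members under the filter. At counts this close to 0, a difference of a few reads decides the order. SLC2A3 had 5, 5, 5 and 9 counts against 8, 3, 4 and 8 (p = 0.571, exact permutation test), and its groups overlapped.

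Hexokinases trap glucose in the cell, and of the 2 among the members HK2 was by far the more abundant. Its FPKM ranged from 14.3 to 17.5, against 0 to 0.0792 for HK1. The normalized CPM of HK2 was 98.2, 114, 109 and 106 in I/R+DMSO and 113, 109, 110 and 112 in I/R+Rk2. The groups overlapped, and HK2 differed by 0.06 on the log2 scale (standard error 0.0498, adjusted p = 0.443, edgeR). HK1 had 2, 2, 2 and 5 counts against 7, 4, 0 and 7 (p = 0.429, exact permutation test).

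Of all tested genes, 18.2% were called and 28.2% had groups that did not overlap. None of the 6 tested enzymes between glucose 6-phosphate and the triose phosphates passed the test, and their groups overlapped in all 6. Their log2 fold changes lay between -0.19 for TPI1 (triose phosphate isomerase, adjusted p = 0.167) and 0.08 for PFKM (a phosphofructokinase, adjusted p = 0.501). Without I/R+DMSO library 2, TPI1 was called at -0.28 (adjusted p = 0.0191, edgeR), and without I/R+DMSO library 1 it was at -0.12 (adjusted p = 0.322). GPI was at -0.11, PFKL at 0.01, ALDOA at -0.11 and ALDOC at -0.07. Exons of GPI overlap those of AC092073.1 in the GENCODE v29 annotation, which held 2.06 to 5.91 CPM here beside 452 to 532 for GPI. Phosphofructokinase was a mixture of the liver form PFKL, at 23.3 to 32.9 FPKM, and the muscle form PFKM, at 20.5 to 25.8. The platelet form PFKP, at 0 to 0.178 FPKM, had at most 10 counts in a library (p = 0.714, exact permutation test). For aldolase, ALDOA at 431 to 557 FPKM exceeded ALDOC at 38.5 to 47.4.

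The PFKFB enzymes make and break fructose 2,6-bisphosphate, the strongest activator of phosphofructokinase, and they held the only member called higher. PFKFB2 (chr1:207034366-207081024), an isoform whose kinase activity is known to be raised by AKT phosphorylation, had a normalized CPM of 6.95, 8.28, 11.5 and 10.4 in I/R+DMSO and of 15.7, 15.9, 15.9 and 18.9 in I/R+Rk2. The highest DMSO library was below the lowest Rk2 library. The mean rose from 9.29 ± 2.05 to 16.6 ± 1.52 (SD, n = 4 each), which was 0.84 in log2 fold change (standard error 0.156, adjusted p = 0.00979 in edgeR). Its level was low, at 1.14 to 2.92 FPKM, whereas PFKFB3 was at 13.6 to 28.9 FPKM.

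PFKFB3, the hypoxia-inducible isoform with the highest kinase activity, had separate groups in the count table and overlapping ones in the FPKM table. Its normalized CPM was 134, 66.4, 68.7 and 64.1 in I/R+DMSO and 57.4, 54.8, 50.2 and 52.8 in I/R+Rk2. The groups did not overlap, but I/R+DMSO library 1 stood well above the other 3. In log2 fold change PFKFB3 was at -0.63 (standard error 0.239, adjusted p = 0.105, edgeR). Without I/R+DMSO library 1 it was smaller and passed the test, at -0.30 (adjusted p = 0.0137, edgeR), as -0.63 did in DESeq2 (adjusted p = 0.0352), while the adjusted p-value over all alternatives ran from 0.0137 to 0.901. In FPKM the libraries had 25.8, 19.4, 25.8 and 13.6 against 15.2, 22.9, 28.9 and 21.4, which overlapped, and limma on log2(FPKM + 1) gave a difference of 0.07. PFKFB4 was at 0.06 (adjusted p = 0.610), and PFKFB1 had at most 3 counts in a library (p = 0.429, exact permutation test).

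**Figure D2:**
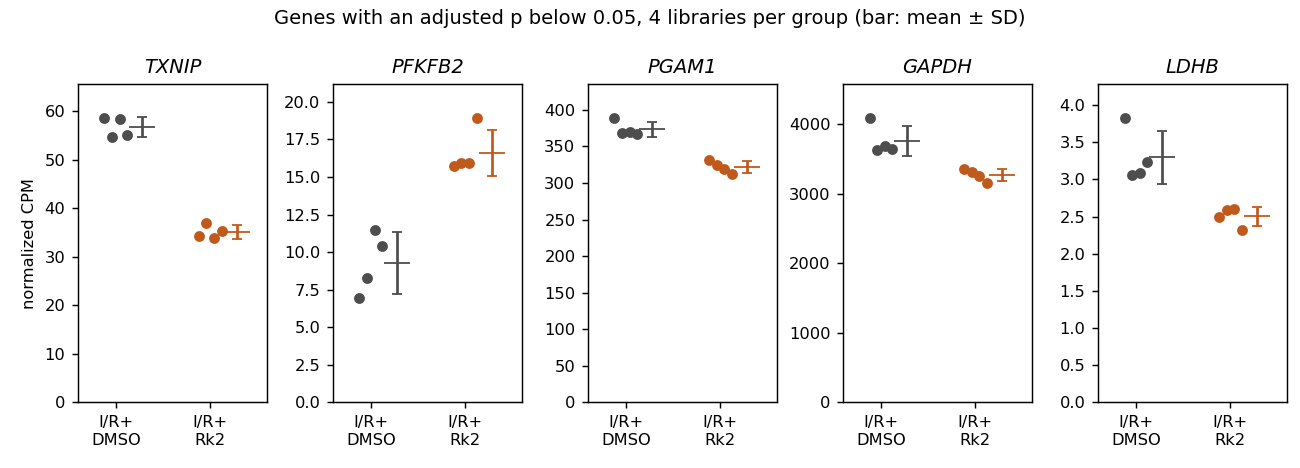
Normalized CPM (vertical axis, from 0) of the 5 called members in each of the 4 libraries of I/R+DMSO (gray) and I/R+Rk2 (orange), with the mean ± SD beside the points. The groups do not overlap in any of the 5, and TXNIP and PFKFB2 are the ones whose means differ by more than 1.5-fold.

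From the triose phosphates to pyruvate, 2 of 6 tested enzymes fell, both by small amounts, where 7.23% of all genes were lower. The groups did not overlap in 3 of the 6, against 28.2% of all genes. PGAM1 (chr10:97426160-97433441), a phosphoglycerate mutase, had a normalized CPM of 388, 368, 370 and 367 in I/R+DMSO and 331, 324, 318 and 313 in I/R+Rk2. The groups were far apart compared with their own spread. Its mean fell from 373 ± 10.0 to 322 ± 8.01 (SD, n = 4 each), and the log2 fold change was -0.21 with a standard error of 0.0354 (adjusted p = 0.00609, edgeR). PGAM4, a near-identical copy of PGAM1 with which it can share reads, was called at -0.18 (adjusted p = 0.0379, edgeR) and was at -0.02 after the gene length correction, where PGAM1 was at -0.17.

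GAPDH (chr12:6533927-6538374), which oxidizes glyceraldehyde 3-phosphate and is widely used as a reference transcript, had a normalized CPM of 4086, 3634, 3686 and 3643 in I/R+DMSO and of 3354, 3320, 3263 and 3155 in I/R+Rk2. Each Rk2 library was below each DMSO library. GAPDH fell by 0.20 on the log2 scale (standard error 0.0469, adjusted p = 0.0226, edgeR). The call was lost without I/R+Rk2 library 2, 3 or 4, with adjusted p-values up to 0.0639 and the log2 fold change nearly as before (-0.21, -0.20 and -0.19), and the value moved to -0.13 after the gene length correction (adjusted p = 0.0112, edgeR, against 0.000739 to 0.0639 over all alternatives). ENO1, the main enolase, was at -0.17 (adjusted p = 0.0794, edgeR) with groups that did not overlap. PGK1, whose exons overlap those of ATP7A (4.88 to 9.50 CPM), was at -0.04 and ENO2 at 0.07. On the FPKM scale ENO1 (1156 to 1405) was far above ENO2 (5.83 to 7.92).

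Pyruvate kinase came almost wholly from PKM, the gene of the M1 and M2 forms, at 1076 to 1691 FPKM, while PKLR, the gene of the liver form, was at 0.0347 to 0.216 FPKM. The normalized CPM of PKM was 2622, 2566, 2455 and 2093 in I/R+DMSO and 2044, 1443, 1548 and 2151 in I/R+Rk2. Rk2 library 4 was above DMSO library 4, so the groups overlapped. The mean was 2434 ± 238 in I/R+DMSO and 1796 ± 353 in I/R+Rk2 (SD, n = 4 each), and the difference of -0.44 on the log2 scale (standard error 0.142) did not pass the test (adjusted p = 0.0682, edgeR). It passed in DESeq2 (-0.44, adjusted p = 0.0161) and in voom with sample weights (-0.49, adjusted p = 0.0457), over a range of 0.0161 to 0.164 for all alternatives. PKLR had 6, 11, 6 and 8 counts against 14, 12, 3 and 3 (p = 0.800, exact permutation test). Taken over the 7 genes of lower glycolysis, the summed share of all counts was 1.08%, 1.01%, 1.00% and 0.944% in I/R+DMSO and 0.914%, 0.846%, 0.857% and 0.890% in I/R+Rk2, a sum in which GAPDH, ENO1 and PKM weigh most.

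Lactate dehydrogenase was nearly all LDHA, at 194 to 492 FPKM, against 2.86 to 4.53 FPKM for LDHB. The normalized CPM of LDHA, the form that favors lactate, was 394, 487, 1058 and 507 in I/R+DMSO and 522, 689, 623 and 665 in I/R+Rk2. A single library, I/R+DMSO library 3, was far above the other 7, and in the FPKM table it was highest too (492, against 194 to 353 in the others). With all 8 libraries the difference was 0.03 on the log2 scale (standard error 0.296, adjusted p = 0.956, edgeR). Without that library it was 0.43 (adjusted p = 0.0611, edgeR, against 0.0611 to 0.998 over all alternatives), and these libraries could not settle the direction of LDHA.

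LDHB (chr12:21635342-21757857, minus strand), the form that favors pyruvate, had a normalized CPM of 3.82, 3.06, 3.08 and 3.23 in I/R+DMSO and 2.49, 2.59, 2.60 and 2.32 in I/R+Rk2. The groups did not overlap, but the gene had only 43 to 76 counts in a library. It fell by 0.40 on the log2 scale (standard error 0.118) at an adjusted p-value of 0.0497 in edgeR, just inside the threshold. The call was lost whichever of the 8 libraries was left out (adjusted p from 0.0701 to 0.115, edgeR) and after the gene length correction (-0.21, adjusted p = 0.245, edgeR), and it was kept under upper-quartile normalization alone of 18 alternatives (adjusted p = 0.0386). Exons of LDHB overlap AC010197.2 in GENCODE v29, which was not in the count table. Of the lactate carriers, SLC16A1 (MCT1) was at 0.01 (adjusted p = 0.825) and SLC16A3 (MCT4) at -0.24 (adjusted p = 0.0643), with levels of 62.7 to 73.6 and 35.8 to 50.8 FPKM. Without I/R+Rk2 library 3, the highest of its group, SLC16A3 was called at -0.32 (adjusted p = 0.00959, edgeR, against up to 0.150 over all alternatives).

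**Figure D3:**
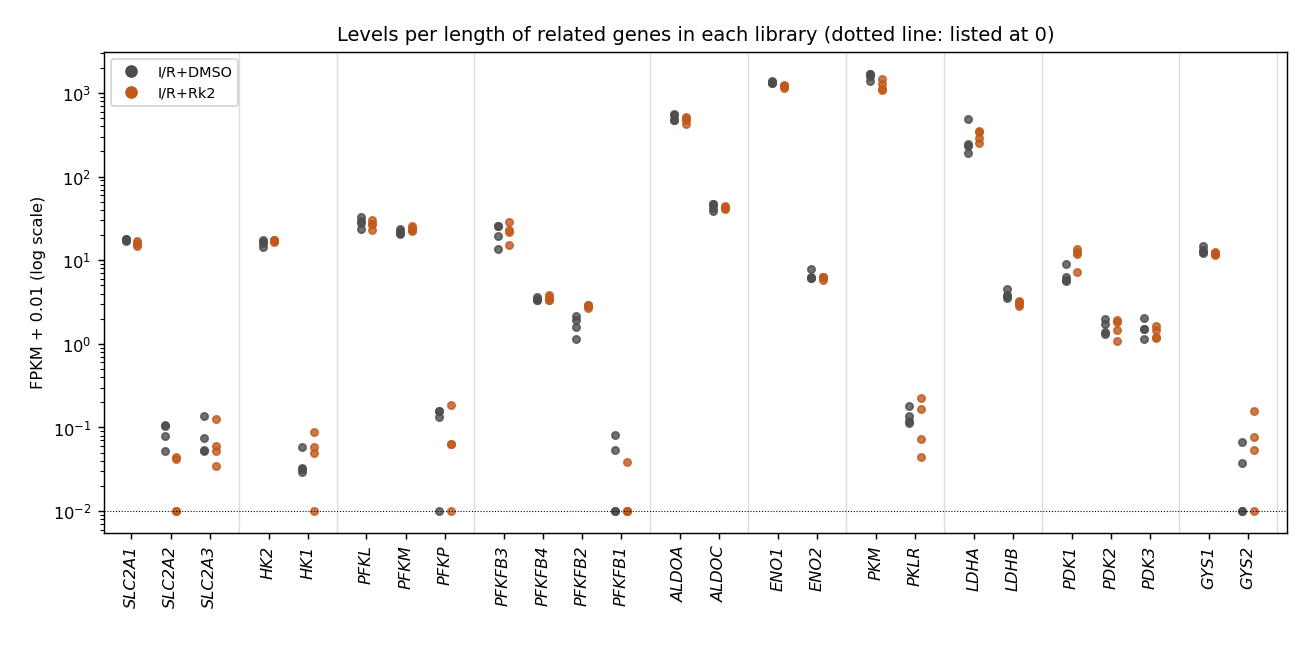
FPKM + 0.01 on a log axis for related genes side by side, 1 point per library, gray for I/R+DMSO and orange for I/R+Rk2, with the dotted line marking genes listed at 0. SLC2A1, HK2, PKM and LDHA stand far above SLC2A2, HK1, PKLR and LDHB, while PFKL and PFKM lie close together.

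None of the 5 genes of the pyruvate dehydrogenase step passed the test, where 18.2% of all tested genes were called. The groups did not overlap in 2 of the 5, PDHA1 and PDK1, against 28.2% of all genes. PDHA1 and PDHB, subunits of its first enzyme, were at -0.11 (adjusted p = 0.140) and -0.06 (adjusted p = 0.667). The PDHA1 libraries were all lower in I/R+Rk2, at 86.7 to 95.2 CPM against 95.6 to 102, while those of PDHB overlapped. PDK1, the hypoxia-inducible kinase, had a normalized CPM of 30.7, 37.0, 33.5 and 39.1 in I/R+DMSO and 43.7, 39.4, 43.6 and 40.5 in I/R+Rk2. The Rk2 libraries were all higher, the closest by 39.4 against 39.1, and the difference was 0.25 on the log2 scale (standard error 0.0832, adjusted p = 0.0681, edgeR). In FPKM PDK1 was at 5.68, 9.07, 5.87 and 6.35 against 11.8, 12.5, 7.17 and 13.6, where the groups overlapped and limma gave a difference of 0.65 on log2(FPKM + 1). Both scales thus placed the Rk2 mean higher, by different amounts. PDK1 did not pass in the reported test or in limma on FPKM, and it passed in DESeq2 (adjusted p = 0.041) and without I/R+DMSO library 4 (0.31, adjusted p = 0.038 in edgeR), over a range of 0.038 to 0.147 for all alternatives.

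PDK2, a widely expressed kinase, had a normalized CPM of 2.65, 1.41, 2.31 and 1.69 in I/R+DMSO and 1.997, 2.06, 1.87 and 1.62 in I/R+Rk2, which overlapped (log2 fold change -0.09, standard error 0.217, adjusted p = 0.812, edgeR). PDK3 had 3.50, 3.11, 2.53 and 2.53 against 2.42, 2.38, 2.60 and 2.78, which also overlapped (-0.20, standard error 0.144, adjusted p = 0.373, edgeR). Per length, PDK1 (5.68 to 13.6 FPKM) was the most abundant of the 3 kinases, and PDK2 (1.06 to 1.97) and PDK3 (1.14 to 2.01) did not differ beyond their spread.

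Of the genes that store glucose as glycogen, PGM1, GYS1 and GBE1 (phosphoglucomutase, glycogen synthase and branching enzyme) were at 0.13, -0.09 and 0.12, with adjusted p-values of 0.145, 0.275 and 0.379 in edgeR and groups that overlapped. GYS2, the liver glycogen synthase, had at most 9 counts in a library (p = 0.286, exact permutation test), whereas GYS1 was at 11.7 to 14.7 FPKM.

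**Figure D4:**
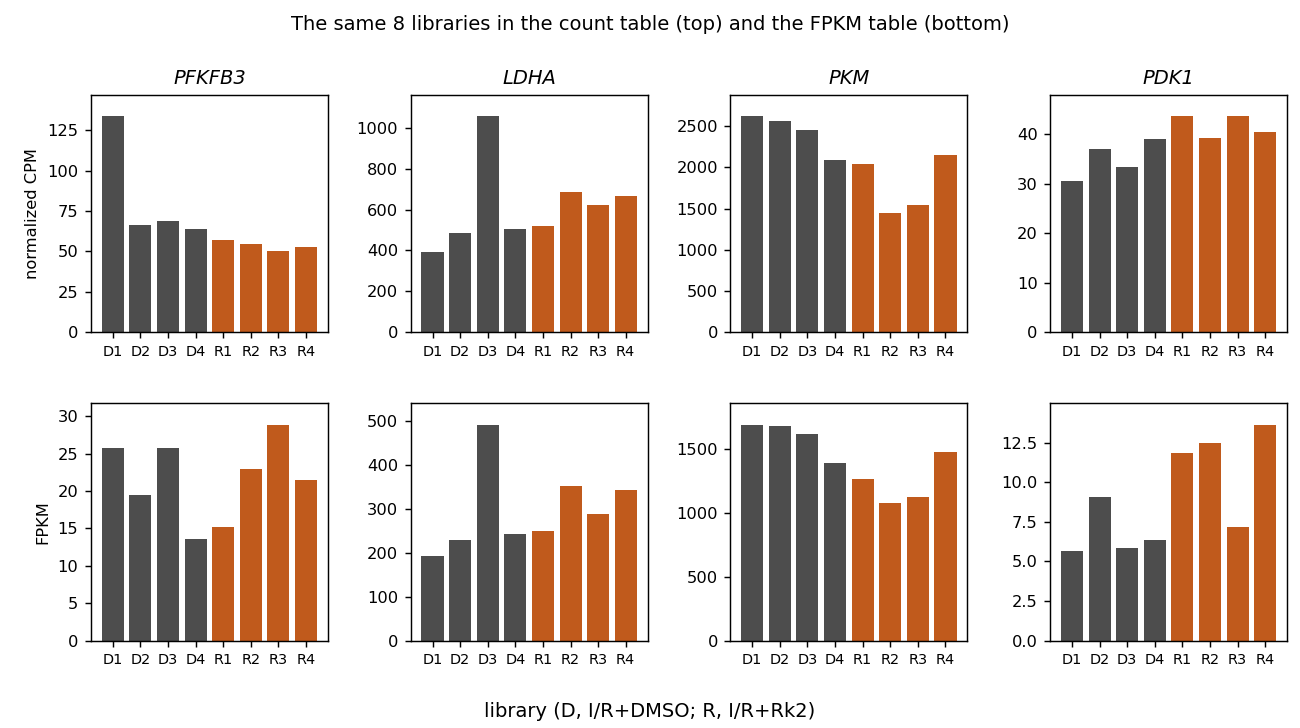
Bars give the normalized CPM (top row) and the FPKM (bottom row) of PFKFB3, LDHA, PKM and PDK1 in I/R+DMSO libraries D1 to D4 (gray) and I/R+Rk2 libraries R1 to R4 (orange), on axes that start at 0. The high D1 bar of PFKFB3 at 134 CPM has no counterpart in FPKM, where it is 25.8, and the high D3 bar of LDHA is present in both rows.

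The members differed widely in level. The mean FPKM over the 8 libraries was above 1000 for 3 members (GAPDH at 1858, PKM at 1415 and ENO1 at 1275), above 100 for 8, above 10 for 22 and above 1 for 30, and the lowest was PFKFB1 at 0.0180. Replicates were close for most of them. The coefficient of variation of normalized CPM within a group had a median of 5.70% over the 62 groups of 31 members and was under 10% in 46. The ratio of related genes within a library gave no separation of I/R+DMSO from I/R+Rk2 in any pair that could be computed, from ALDOA over ALDOC (10.1 to 13.2 against 9.79 to 12.3) to LDHA over LDHB (42.8 to 132 against 82.9 to 120). Gene length and log2 fold change were correlated across all genes (Spearman's rho 0.388, 12926 genes) and across the 31 members (0.426), longer genes being higher in I/R+Rk2. This is a description over genes, which share the 8 libraries. After the length correction PGAM1 and GAPDH kept their calls and LDHB did not, with the values given above, while SLC2A1 and PGK1 (-0.14, adjusted p = 0.0498, edgeR) gained one.

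**Figure D5:**
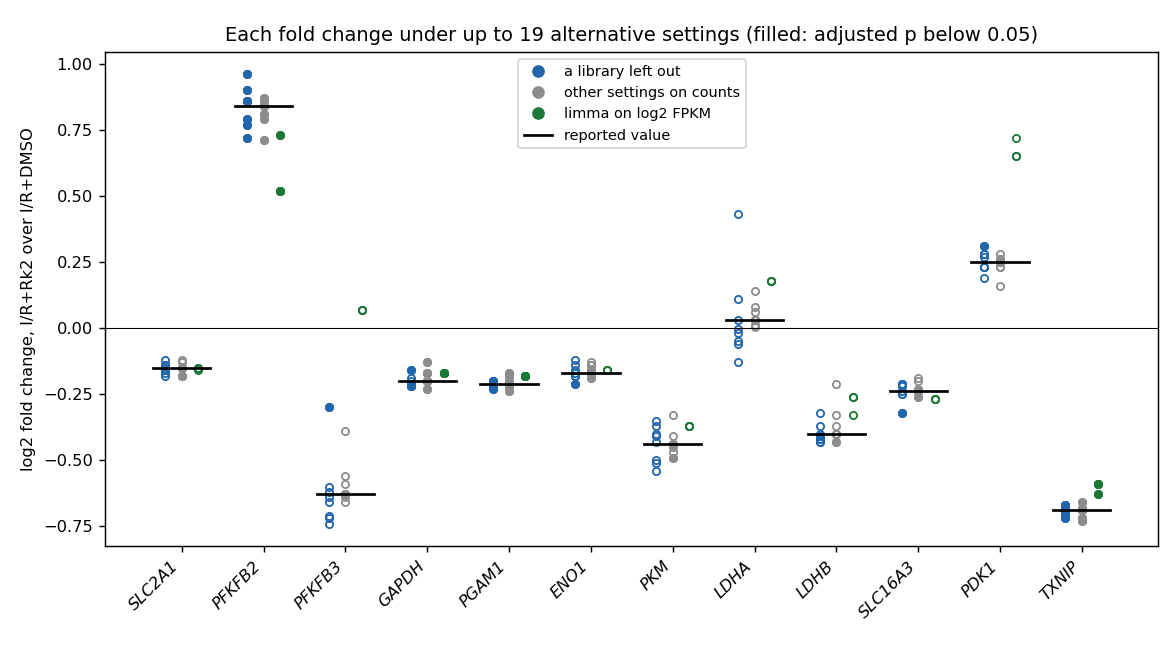
Log2 fold change (vertical axis) of 12 members under the alternative settings, with blue circles for a library left out, gray for other settings on counts, green for limma on log2 FPKM, filled circles for an adjusted p-value below 0.05 and a black line for the reported value. PFKFB2, PGAM1 and TXNIP are filled throughout, and PFKFB3 and LDHA have values on both sides of 0.

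TXNIP, PFKFB2 and PGAM1 were called under all 19 alternative settings. TXNIP ranged from -0.73 to -0.59, PFKFB2 from 0.52 to 0.96 and PGAM1 from -0.24 to -0.17 in log2 fold change, so the sign and the call of these 3 genes did not depend on the normalization, filter, unit, tool or any single library tried.

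Other genes of glucose metabolism and its regulators were examined in 10 lists with 115 genes. Of the 95 tested, 11 were higher and 5 lower, or 16.8%, again close to the 18.2% of all genes. With upper-quartile normalization these were 10 higher and 9 lower, and with DESeq2 11 and 9. Their median log2 fold change was 0.01. Among other hexose carriers, 1 of 8 was called, SLC2A13, a carrier of myo-inositol, at 0.88 (adjusted p = 0.00124, edgeR), with 8.12, 10.4, 9.14 and 10.8 CPM in I/R+DMSO and 18.3, 17.3, 17.5 and 17.8 in I/R+Rk2. Among other glycolytic enzymes only PGAM4 of 8 was called, and among other genes of pyruvate and lactate only DLAT of 12, a subunit of the pyruvate dehydrogenase complex, at 0.24 (adjusted p = 0.0175). Of 19 alternatives, SLC2A13 was called in all (log2 fold change 0.54 to 0.94), DLAT in 14 (adjusted p up to 0.367) and PGAM4 in 5 (adjusted p up to 0.906).

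Genes of glycogen turnover had 3 of 21 higher and 1 lower. Among all tested genes 11.0% were higher and 7.23% lower, the background also for the pentose phosphate and gluconeogenic lists below. PGM2L1, which makes glucose 1,6-bisphosphate, was at 0.57 (adjusted p = 0.0037). PPP1R3B, which targets a phosphatase to liver glycogen, was at 0.39 (adjusted p = 0.0243), and EPM2A, the glycogen phosphatase laforin, was at -0.59 (adjusted p = 0.00823). In the pentose phosphate pathway 2 of 8 fell. PGD, 6-phosphogluconate dehydrogenase, had 531, 522, 526 and 499 CPM in I/R+DMSO and 444, 458, 451 and 437 in I/R+Rk2 (-0.22, adjusted p = 0.00546), and its call was lost in the 3 limma fits on FPKM, at -0.17 (adjusted p from 0.294 to 0.353). Of 6 gluconeogenic genes 2 were higher, PCK2, the mitochondrial PEP carboxykinase, at 0.52 (adjusted p = 0.00574) and PC, pyruvate carboxylase, at 0.20 (adjusted p = 0.026). PC was called in 12 of 19 alternatives and in 4 of the 8 fits that left out a library (adjusted p up to 0.473), and PPP1R3B in 13 of 19 and 5 of 8 (adjusted p up to 0.0865). PCK2, PGM2L1 and EPM2A were called in all 19, with log2 fold changes of 0.48 to 0.61, 0.36 to 0.67 and -0.98 to -0.51.

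Among the glucose-sensing factors, MLXIPL (ChREBP) was higher, MLX was at -0.25 (adjusted p = 0.251) and MLXIP (MondoA) at 0.09 (adjusted p = 0.227). MLXIPL had 0.955, 0.800, 1.27 and 2.30 CPM in I/R+DMSO and 2.42, 3.18, 4.05 and 2.63 in I/R+Rk2, with 17 to 74 counts in a library. Its log2 fold change was 1.19 (standard error 0.336, adjusted p = 0.0435, edgeR), and the call held in 1 of the 8 fits that left out a library. Over all alternatives its adjusted p-value ran from 0.00842 to 0.0999.

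HIF1A, the oxygen-sensitive subunit of HIF-1, was the 1 of 9 HIF and related factors called. It had 211, 219, 213 and 231 CPM in I/R+DMSO and 290, 293, 291 and 279 in I/R+Rk2. The groups were far apart, at 0.40 (standard error 0.0401, adjusted p = 0.000862, edgeR), and the call held under all 19 alternatives. Of 13 HIF targets outside glycolysis, 2 were higher, BHLHE40, a transcriptional repressor, at 0.48 (adjusted p = 0.000694) and P4HA1, a collagen prolyl hydroxylase, at 0.12 (adjusted p = 0.0464), and none was lower. The shares called were 11.1% of the factors and 15.4% of these targets. Over all tested genes 18.2% were called (11.0% higher and 7.23% lower). P4HA1 was called in 5 of 19 alternatives and in 1 of the 8 fits that left out a library (adjusted p up to 0.121), and BHLHE40 in all 19. Of 7 other arrestin-domain and thioredoxin genes, TXN2, the mitochondrial thioredoxin, fell at -0.28 (adjusted p = 0.0163), and its call was lost in the 3 limma fits on FPKM, at -0.17 (adjusted p from 0.267 to 0.319). The p-values of these lists are from edgeR, adjusted over all tested genes.

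Some markers of cell state differed as well. Of the 15 hepatocyte markers, APOB was higher (0.61, adjusted p = 0.0124) and FGB, KRT8 and KRT18 were lower (-0.27, -0.47 and -0.52, adjusted p = 0.0462, 0.000771 and 0.00642 in edgeR). That is 26.7% called, where 18.2% of all tested genes were called (11.0% higher and 7.23% lower). After the gene length correction APOB was at 0.29 (adjusted p = 0.0147), and FGB was not called (adjusted p = 0.0833). The summed share of the 15 in all counts was 1.43% to 1.54% with DMSO and 1.47% to 1.51% with Rk2, led by AFP. Of the leukocyte markers, LYZ was not called, and CD14 was lower at 0.802 ± 0.255 against 0.341 ± 0.124 CPM (SD, n = 4 each, adjusted p = 0.043 in edgeR, and 0.0505 after the length correction). None of the endothelial or stromal markers was called, and the part of these markers in the values above was not tested.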

How the data were processed

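RNA-seq of HuH7 cells after OGD/R was analyzed in 8 libraries, 4 given DMSO and 4 given 20 µM Rk2, grouped by their deposited labels. Per the labels and the study's methods, libraries were made from 250 ng of RNA with the MGIEasy kit and processed with FastQC 0.11.5, HISAT2 2.2.1 and StringTie 1.3.3 on hg38 (submitters' processing notes). The read counter and the annotation are not given in the sources used here. The authors deposited raw counts per gene without normalization (15767 genes), and FPKM normalized by gene length and library size (19799 genes). Date-like symbols (22 rows, 0.111% of counts) were kept out of all lists.

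Counts were tested with edgeR 4.0.16 (R 4.3.3) by its robust quasi-likelihood test after TMM normalization, for genes that reached 10 counts in 4 or more libraries (12928 genes, 99.96% of counts). The model held the condition alone, and p-values were adjusted after Benjamini and Hochberg over all these genes. Genes were called at an adjusted p-value below 0.05. Normalized CPM is the count divided by the TMM-scaled library size, and standard errors are the log2 fold change over the root of the F statistic. Members below the filter were compared by exact two-sided permutation of their CPM over 70 assignments, without adjustment. The study used DESeq2. Gene length was derived from counts and FPKM, and lengths were corrected with a loess curve per library (span 0.5). Positions and exon overlaps come from GENCODE v29 and promoters from RefSeq (GRCh38.p14). In simulated data on 12928 genes with 200 changed 2-fold, the test found 184 with 13 false calls. Every simulated gene had the same dispersion between replicates, and changes below 2-fold were not tried. The simulation thus does not cover the smaller changes called here. Variation between replicates in the real libraries came to 17.1% (common coefficient).

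The 38 members, the lists and the tests were chosen with earlier results of these data known. Values in every library are given for called members and for TXNIP, ARRDC4, SLC2A1, SLC2A2, SLC2A3, HK1, HK2, PKM, PKLR, LDHA, LDHB, PDK1, PDK2 and PDK3, and for PFKFB3, which was chosen after its values were seen. Other members are given by role, with the 4 genes of smallest p at most in each further list. Some genes counted in those lists are not reported here by name. Library values of SLC2A13, PGD, MLXIPL and HIF1A, the levels of SLC2A6 and SLC2A8 and the ratio of PFKM to PFKL were also chosen after their values were seen. Alternatives were library size only, upper-quartile normalization, DESeq2 1.42.0, no count filter, at least 50 counts in every library, limma 3.58.1 on log2(FPKM + 1) or log2(FPKM + 0.1) for genes averaging 0.5 FPKM or more, the former also unfiltered, voom with weights per sample, the gene length correction, a replicate block and each library left out in turn.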

Additional observations from a re-analysis of the deposited data

Results flagged for a closer look

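A library was set apart by Dixon's ratio (its gap to the nearest other library over the range of its group, against the 95% critical value) in 6 of the 62 groups formed by 31 members and 2 conditions, where chance gives about 1 in 20. In I/R+DMSO, library 1 was the high one in all 3 cases, PFKFB3 (ratio 0.934), GAPDH (0.884) and PGAM1 (0.865), with 134, 4086 and 388 normalized CPM. In I/R+Rk2, library 4 was high for PFKFB2 (0.940, with 18.9 CPM) and low for ALDOC (0.861, with 83.2 CPM), and library 3 was high for SLC16A3 (0.874, with 103 CPM). LDHA in I/R+DMSO library 3, at 1058 CPM, fell short of the critical value only in the fifth digit of its ratio, and in FPKM the same library had a ratio of 0.837, above it. Without I/R+DMSO library 1, PGAM1 and GAPDH kept their calls. Without I/R+Rk2 library 3, SLC16A3 gained a call (-0.32, adjusted p = 0.00959, edgeR). PFKFB2 kept its call without I/R+Rk2 library 4, and GAPDH did not keep its call without that library.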

How the results depend on the processing

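Members called higher were 2 rather than 1 in DESeq2 and 1 to 2 with a library left out (2 without I/R+DMSO library 4). Members called lower were 7 rather than 4 with upper-quartile normalization, 8 in DESeq2 (gaining SLC2A1, PFKFB3, ENO1, PKM and SLC16A3, and losing LDHB) and 2 to 4 with a library left out (2 without I/R+Rk2 library 2 or 4). In the other lists, the 11 higher genes became 7 in limma on log2(FPKM + 1) without a filter and 6 to 10 with a library left out, and the 5 lower genes became 3 with library size only, 9 with upper-quartile normalization and with DESeq2, 2 in limma on log2(FPKM + 1) and on log2(FPKM + 0.1), 1 without a filter, and 3 to 6 with a library left out. Over all tested genes, 866 to 1410 were higher and 428 to 884 lower with a library left out, and limma on log2(FPKM + 1) called 812 and 309. DESeq2 called more genes over the whole table too, 1683 higher and 1296 lower against 1416 and 935.

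Of 583 member values under alternatives, 516 kept direction and side of the threshold, 20 lost the call (2 genes, GAPDH and LDHB), 18 gained it (8 genes, SLC2A1, TPI1, PFKFB3, PGK1, ENO1, PKM, SLC16A3 and PDK1) and 29 changed sign (9 genes, none of them called in the reported test). In log2 fold change, the gene length correction gave -0.10 for HK2, -0.07 for SLC16A1, 0.01 for PDHB and 0.05 for PDK2, and upper-quartile normalization gave -0.02 for PFKL and -0.01 for SLC16A1. limma on log2(FPKM + 1), log2(FPKM + 0.1) and log2(FPKM + 1) without a filter gave -0.07, -0.08 and -0.07 for PFKL, 0.07 in all 3 for PFKFB3, 0.02, 0.03 and 0.02 for PGK1 and -0.07, -0.08 and -0.07 for ENO2, and voom gave 0.09 for PDK2. With a library left out, PFKL ranged from -0.01 to 0.04, LDHA from -0.13 to 0.43, SLC16A1 from -0.0009 to 0.03 and PDK2 from -0.23 to 0.07. The causes of these changes were not tested. Every scaling of counts tried moved the median of all genes by at most 0.03.

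With a replicate block, 1 member was higher and 4 were lower, the other lists had 8 higher and 3 lower, and all tested genes had 1142 higher and 672 lower. Deviations from the group means had correlations from -0.00945 to 0.0845 for libraries of the same number. For libraries of different numbers they were from -0.148 to 0.0769. Only 1 of 4 was highest with its own number, so the numbers were not taken as pairs. The 4 lower members under the block were TXNIP, PGAM1, GAPDH and SLC16A3 (-0.24, adjusted p = 0.0417, edgeR), and LDHB lost its call (adjusted p = 0.11, edgeR). The 7 members below the filter had too few counts for the model. ARRDC4 had at most 15 counts in a library and LDHB 43 to 76, and the effect of depth on their calls was not tested.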
